A study of Mus musculus with 36 samples.

Results

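Bile duct ligation and cyclosporin A are 2 ways of producing cholestasis in mice, and their effects on liver transcripts at day 7 were set against each other gene by gene. The effect of ligation was the ligated livers minus the sham livers, the effect of cyclosporin was the cyclosporin livers minus the olive oil livers, and their difference was tested directly. These groups held 16 of the 36 libraries of the series, with 4 libraries in each of 4 groups. A gene was tested when 4 or more of the 16 libraries held a normalized count of 10 or above, which left 11675 genes. Of these, 315 passed an adjusted p of 0.05 in both models. There were 77 genes higher in both (0.66% of those tested), 159 lower in both (1.36%), 23 higher after ligation and lower after cyclosporin (0.197%), and 56 lower after ligation and higher after cyclosporin (0.48%).

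All animals were C57BL/6 mice, and RNA came from liver tissue. The ligated group had the bile duct tied and was sampled at day 7, and its controls had sham surgery. The cyclosporin group received cyclosporin A at 15 mg/kg body weight in olive oil by oral gavage and was sampled at day 7, and its controls received olive oil by the same route. The labels give no sex, age, hour of collection or sampling day for the controls, and do not say whether animals were pooled.

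Bile is made by hepatocytes, which take up bile acids from the sinusoid, make new ones from cholesterol and pump them into canaliculi. A tied duct blocks the outflow, so bile acids back up and hepatocytes are injured while bile duct cells multiply. Cyclosporin A is a calcineurin inhibitor used against graft rejection, which also inhibits the bile salt export pump at the canaliculus. The liver runs its own circadian clock, in which activators such as Arntl, Clock and Npas2 drive the genes of their own repressors and of output factors such as Dbp. It also secretes much protein, and chaperones in the cytosol and in the endoplasmic reticulum fold what it makes.

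The 16 libraries held 2278745 to 3770267 reads recovered from the deposited values, with a median of 2814612. Marker genes of hepatocytes summed to 104000 to 116000 normalized counts in sham, 71100 to 87600 after ligation, 122000 to 140000 on olive oil and 104000 to 120000 on cyclosporin, so all 4 groups carried the labelled tissue. Marker genes of bile duct cells summed to 4450 to 5770 after ligation against 785 to 1060 in sham, and to 904 to 1150 on cyclosporin against 938 to 1320 on olive oil. In bulk tissue, fewer cells of a type and less RNA per cell cannot be told apart. Olive oil replicates 1 and 2 stood apart. Their counts of Saa1, an acute-phase protein, were 9848 and 7126, against 281 and 296 in replicates 3 and 4, and those of the neutrophil gene S100a8 were 157 and 64.8 against 4.38 and 1.34. Many results on which these libraries bear are given with and without them, and others are given on all 16 libraries only. The control groups also differed from each other, with 1373 genes higher and 1273 lower in sham than in olive oil, which is 22.7% of the genes tested.

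Ligation changed far more genes than cyclosporin. After ligation 2244 genes were higher (19.2% of those tested) and 2456 lower (21%), together 40.3%, and 1126 and 460 exceeded a log2 change of 1. On cyclosporin 281 genes were higher (2.41%) and 343 lower (2.94%), together 5.34%, and 68 and 75 exceeded that size. The cyclosporin counts depended on which libraries were kept. They fell to 167, 169, 135 and 183 higher genes without CsA7 replicates 1, 3 and 4 and VEHICLE replicate 2, and to 212, 179 and 223 lower genes without CsA7 replicates 3 and 4 and VEHICLE replicate 2. The difference between the effects passed for 1384 genes in the direction of ligation (11.9%) and for 1657 in the direction of cyclosporin (14.2%), together 26%. Of these genes 2508 were called in the ligation model alone, 157 in the cyclosporin model alone, 133 in both and 243 in neither.

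Among genes that moved in both models, 236 of 315 (74.9%) moved the same way. The 77 genes higher in both made up 27.4% of the genes higher on cyclosporin and 3.43% of those higher after ligation. The 159 genes lower in both made up 46.4% and 6.47% of the lower genes, respectively. In the opposite direction, 19.9% of the genes higher on cyclosporin were lower after ligation, and 6.71% of the genes lower on cyclosporin were higher after ligation. Over all genes tested, 19.2% were higher and 21% lower after ligation, so the 19.9% lay near the share of all genes. Across all genes tested the 2 effects had a Pearson r of 0.19 and a Spearman rho of 0.15, which is a description across genes that share libraries. The plot of both effects shows each of the 4 classes.

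**Figure D1:**
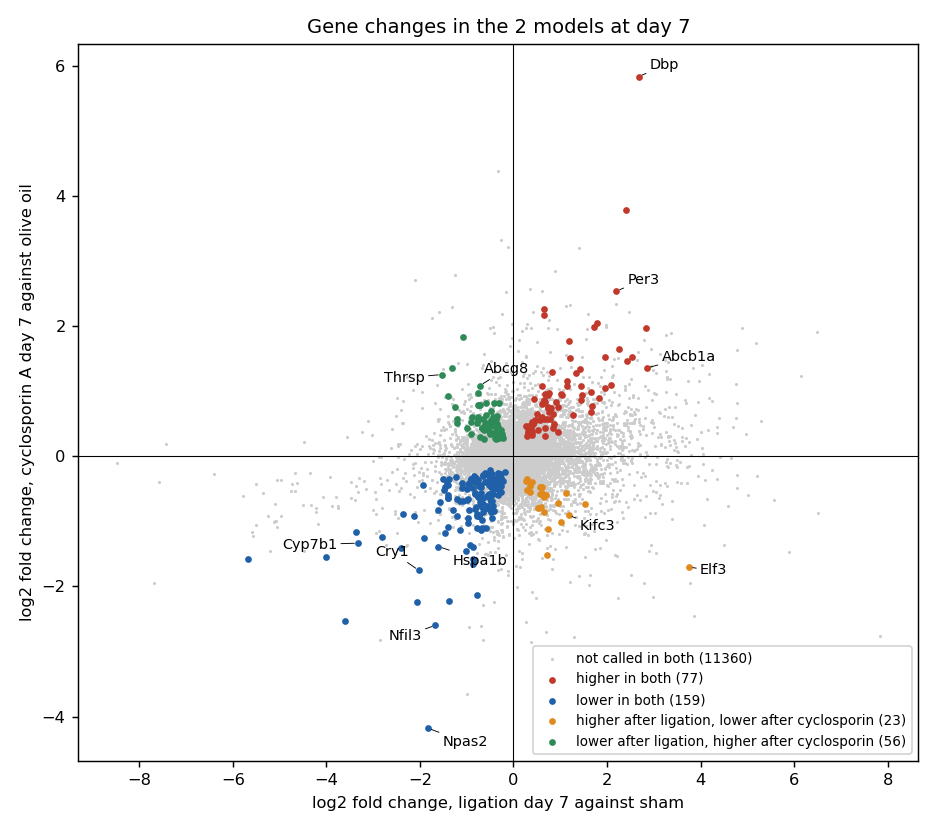
Each point is 1 of 11675 genes, by its log2 fold change after ligation (horizontal) and on cyclosporin (vertical), both at day 7 and each against its own controls. Coloured points passed in both models; Dbp stands highest and Npas2 lowest on the cyclosporin axis among them.

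The median log2 fold change of genes higher in both was 0.76 after ligation and 0.80 on cyclosporin, and that of genes lower in both was -0.72 and -0.60. Genes higher after ligation and lower on cyclosporin had medians of 0.62 and -0.60, and the genes with the reverse pattern -0.59 and 0.51. The difference between the effects did not pass for 66 of the 77 genes higher in both and for 116 of the 159 lower in both. It passed for all 79 genes of opposite direction, which follows from how they were chosen. In 51, 119, 18 and 43 genes of the 4 classes, treated and control libraries did not overlap in either model, a share not taken over all genes. Model by model, 63, 137, 20 and 51 genes lay apart after ligation, and 63, 141, 20 and 48 on cyclosporin. The genes were chosen by their calls on the same libraries. Over all genes tested, 19.1% and 20.6% lay apart above and below sham after ligation, and 5.2% and 5.6% above and below olive oil on cyclosporin. Leaving out single libraries changed the class sizes. Genes higher in both numbered 34, 45 and 43 without CsA7 replicates 3 and 4 and VEHICLE replicate 2, and genes lower in both 90 without CsA7 replicate 3 and 90 without CsA7 replicate 4. The 23 became 11 without CsA7 replicate 4 and 11 without VEHICLE replicate 2. The 56 became 25, 13, 30 and 35 without CsA7 replicates 1 and 4 and VEHICLE replicates 2 and 3. Without both olive oil replicates 1 and 2 the classes held 75, 138, 13 and 35 genes.

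Clock genes were among the largest changes shared by the models. Of 7 activators and genes that peak with them, 6 were lower on cyclosporin with a list median of -1.75, and 5 were lower after ligation with a list median of -1.0. Npas2, Nfil3, Cry1 and Clock were lower in both. Of 14 repressors and output genes, 12 were higher on cyclosporin with a median of 2.21, and 6 higher and 1 lower after ligation with a median of 0.65. The median over all genes tested was -0.01 after ligation and 0.00 on cyclosporin. Without olive oil replicates 1 and 2, 7 of the 14 were higher on cyclosporin, with a median of 2.05.

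Promoters of 2 clock genes are shown because each holds the letters through which the clock is known to act, an E-box (CACGTG, bound by Clock with Arntl or Npas2) in Cry1 and D-boxes (TTATGTAA, bound by Dbp, Tef and Hlf, and by Nfil3) in Per3. Both sequences are the 250 bases before the annotated start, from RefSeq on GRCm38.p6, in the direction of the gene, with the matched letters in capitals. The first lies at chr10:85185055-85185304 on the minus strand and its E-box starts 60 bases before the start. The other lies at chr4:151044666-151044915 on the minus strand and its D-boxes start 205 and 158 bases before the start. Per3 was chosen for display after its values were seen.
Cry1: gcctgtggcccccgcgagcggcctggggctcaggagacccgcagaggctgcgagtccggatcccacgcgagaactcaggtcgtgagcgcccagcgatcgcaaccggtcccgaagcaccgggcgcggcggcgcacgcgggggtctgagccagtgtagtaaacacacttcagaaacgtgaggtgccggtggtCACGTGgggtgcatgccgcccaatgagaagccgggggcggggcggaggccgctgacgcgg
Per3: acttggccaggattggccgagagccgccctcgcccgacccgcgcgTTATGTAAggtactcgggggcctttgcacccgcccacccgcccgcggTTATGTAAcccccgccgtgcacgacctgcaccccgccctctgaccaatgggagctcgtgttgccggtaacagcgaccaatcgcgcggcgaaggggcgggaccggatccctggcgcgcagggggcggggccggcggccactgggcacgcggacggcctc
In windows of this length, searched on both strands, the E-box was found in 9.97% of the promoters of 8746 genes tested and in 12 of 66 (18.2%) of those higher in both, 9 of 118 (7.63%) of those lower in both, and 4 of 11 in the list of repressors and output genes. The D-box was found in 0.606% of all promoters and in 1 of those 11, that of Per3. These are matches of letters, not binding sites.

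Npas2, a partner of Arntl that can replace Clock, had 52.3, 57.1, 34.7 and 45.1 normalized counts in sham and 28.4, 6.10, 8.97 and 14.5 after ligation. On olive oil it had 26.3, 28.7, 33.9 and 28.2, and on cyclosporin 1.01, 2.82, 0 and 0. No ligated or cyclosporin library reached its controls, and the fold changes were -1.83 (SE 0.42, adjusted p = 0.00145) and -4.18 (SE 0.42, adjusted p = 9.36e-06). The fall on cyclosporin was larger by 2.35 (95% interval 1.12 to 3.59, adjusted p = 0.00561), although with counts near 0 its size depended on the pseudocount, and with a pseudocount of 5 the difference was 1.01 and did not pass. Nfil3, a repressor at D-boxes, fell from 126 to 185 in sham to 61.8, 42.7, 50.9 and 38.2, and from 130.2 to 221 on olive oil to 19.2, 27.3, 36 and 28.9. Its fold changes were -1.67 (SE 0.19) and -2.60 (SE 0.19), and their difference of 0.93 (95% interval 0.36 to 1.5, adjusted p = 0.0156) fell to 0.79 and no longer passed without olive oil replicates 1 and 2.

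Cry1, a repressor that peaks late in the cycle, fell by nearly the same factor in both models. It had 103, 117, 114 and 122 counts in sham, 47.6, 25.4, 20.9 and 21.4 after ligation, 138, 96.3, 112 and 115 on olive oil, and 25.3, 39.5, 30.7 and 39.6 on cyclosporin. The fold changes were -2.03 (SE 0.21, adjusted p = 1.76e-07) and -1.75 (SE 0.21, adjusted p = 5.14e-05), with an interval of the difference from -0.88 to 0.34. Arntl, the central activator, passed on cyclosporin alone. Its counts were 215, 192, 177 and 152 in sham, 138, 62.0, 79.8 and 100 after ligation (-1.0, SE 0.67, adjusted p = 0.269), 117, 89.8, 163 and 176 on olive oil and 22.3, 38.6, 3.07 and 2.29 on cyclosporin (-3.66, SE 0.67, adjusted p = 0.00929). The ligated libraries were all below the sham libraries, and the difference of 2.66 did not pass (adjusted p = 0.0574).

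Dbp, the output factor at D-boxes, had 1.20 to 6.48 counts in the 8 control libraries. It had 13.4, 51.9, 51.8 and 30.5 after ligation (2.68, SE 0.50, adjusted p = 0.000438) and 247, 89.3, 297 and 408 on cyclosporin (5.83, SE 0.50, adjusted p = 9.36e-06). The cyclosporin effect exceeded the ligation effect by 3.16 (difference -3.16, 95% interval -4.65 to -1.66, adjusted p = 0.00361). edgeR's quasi-likelihood test on recovered reads gave the same difference of -3.16 but did not call it. Nr1d2, a repressor of Arntl, rose to 302 to 483 on cyclosporin from 63.5 to 101 on olive oil, and to 150.4 to 307 after ligation from 122 to 179 in sham. Its ligation effect of 0.64 (SE 0.21, adjusted p = 0.0207) did not pass without BDL7 replicate 2 (0.51), BDL7 replicate 4 (0.59) or SHAM replicate 3 (0.55), while the difference of -1.61 (SE 0.29, adjusted p = 0.000817) was called. Sham had higher Nr1d2 than olive oil by 0.82 (adjusted p = 0.00982).

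Per3, a period gene, had 8.36, 42.7, 44.9 and 31.3 counts after ligation against 2.75, 7.45, 8.42 and 3.56 in sham, and 81.0, 23.5, 49.8 and 85.3 on cyclosporin against 5.98, 5.55, 15.3 and 9.39 on olive oil. Ligated replicate 1 overlapped the sham libraries, and no cyclosporin library overlapped olive oil. The effects were 2.20 (SE 0.52) and 2.54 (SE 0.52), with an interval of the difference from -1.89 to 1.21. Without olive oil replicates 1 and 2 the cyclosporin effect was 2.06 and did not pass. Per2 passed on cyclosporin alone (0.95, adjusted p = 0.0418) and its call was lost without any one of BDL7 replicates 2 and 3 (0.95 each), CsA7 replicates 1, 3 and 4 (0.86, 0.98 and 0.89), SHAM replicates 2 and 3 (0.95 each) and VEHICLE replicates 1, 2 and 4 (0.63, 1.02 and 1.03), and without both olive oil replicates 1 and 2 (0.57). Tef, a relative of Dbp, was 2.17 higher on cyclosporin (adjusted p = 0.000139) and 0.65 after ligation (adjusted p = 0.0448). That ligation call ended without BDL7 replicates 2, 3 or 4 (0.51, 0.56 and 0.65), CsA7 replicates 1 or 3 (0.65 each), SHAM replicates 1, 3 or 4 (0.59, 0.66 and 0.63) or VEHICLE replicates 3 or 4 (0.65 each).

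Hlf, another D-box factor, was the only gene of the 14 with opposite directions. It fell from 239, 294, 291 and 328 in sham to 196, 219, 249 and 219.8 after ligation (-0.38, SE 0.13, adjusted p = 0.0225) and rose from 236, 292, 279 and 304 on olive oil to 436, 429, 307 and 492 (0.57, SE 0.13, adjusted p = 0.0127). The difference of -0.94 had an interval from -1.32 to -0.57. The ligation call was lost without BDL7 replicate 1 (-0.32), SHAM replicate 2 (-0.37) or SHAM replicate 4 (-0.31), and the cyclosporin call without CsA7 replicate 4 (0.48). Without olive oil replicates 1 and 2, 0 of the 14 genes were called in opposite directions. The same held under total-count scaling and under quantile normalization.

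At day 28 the difference between the models was not tested. Against the same sham and olive oil libraries, Npas2 was -2.61 after ligation (adjusted p = 2.62e-05) and -0.40 on cyclosporin (adjusted p = 0.852), and Per3 was 3.61 (adjusted p = 8.2e-07) and 0.45 (adjusted p = 0.843). Dbp was 1.98 (adjusted p = 0.0119) and 1.12 (adjusted p = 0.593), Per2 1.16 (adjusted p = 0.00969) and 0.62 (adjusted p = 0.606), and Arntl passed in neither (-0.60 and 0.15, adjusted p = 0.401 and 0.959). In the cyclosporin group at day 28, replicate 2 had 44.0 counts of Dbp and 5.37 of Npas2, while the other 3 had 3.81 to 4.46 and 29.5 to 41.4. No hour of collection is given for any group, and its part in these values was not tested.

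**Figure D2:**
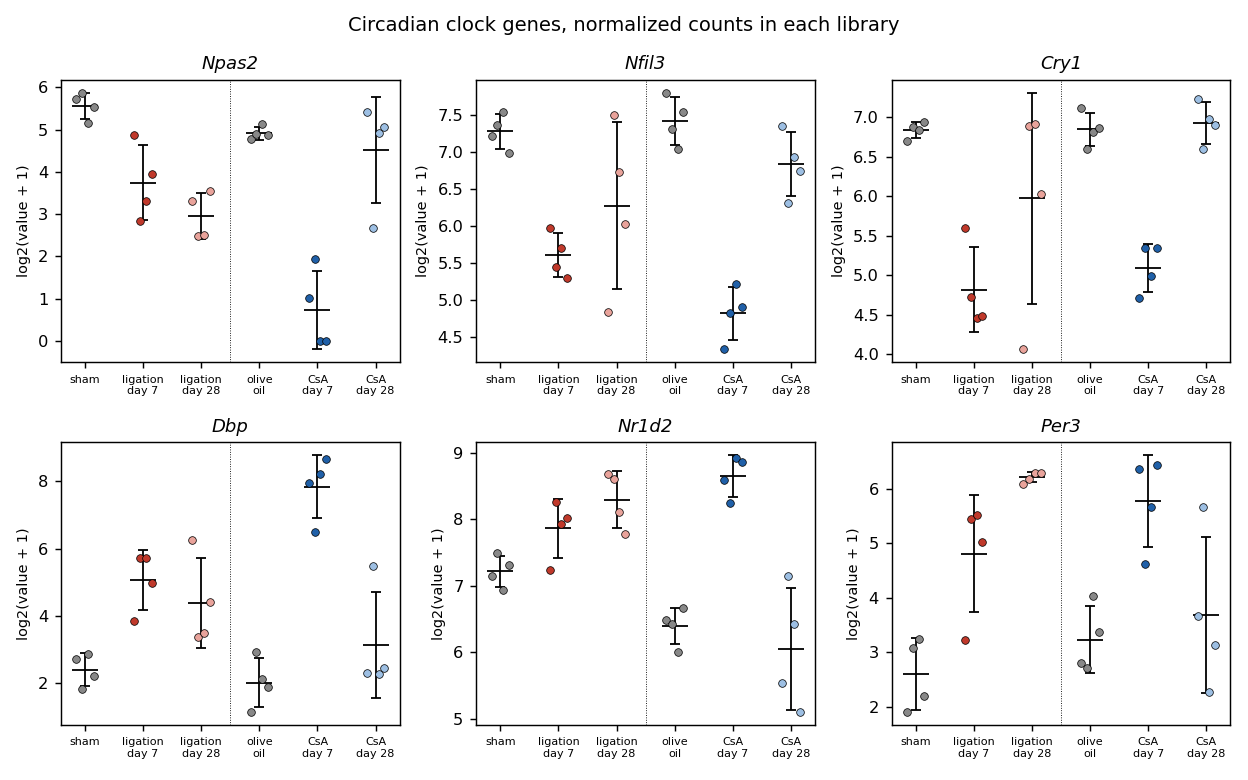
Points are single libraries on a scale of log2(normalized count + 1), bars are means with SD over 4 libraries, and the dotted line parts the ligation groups from the cyclosporin (CsA) groups. Npas2, Nfil3 and Cry1 sat below their controls in all 4 libraries of both models at day 7, and Dbp above them.

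Heat shock chaperones fell in both models. Of 9 measured, of which Hspd1 and Hspe1 are mitochondrial, 8 were lower after ligation with a list median of -0.76, and 5 were lower on cyclosporin with a list median of -0.74, none was higher in either, and Hspa1b, Hsph1, Hsp90aa1, Hspa8 and Dnajb1 were lower in both. Without olive oil replicates 1 and 2, 3 of the 9 were lower on cyclosporin, with a median of -0.75. Chaperones of the endoplasmic reticulum fell on cyclosporin, and fewer of them were lower after ligation. Of 16 measured, 11 were lower on cyclosporin with a median of -0.66, and 5 were lower after ligation with a median of -0.26. Over all genes tested, 2.94% were lower on cyclosporin and 21% lower after ligation. For 11.9% the effect on cyclosporin was called below that of ligation. The difference itself was called for 3 of the 16, all with the effect on cyclosporin below that of ligation, and for 9 under total-count scaling and 9 under quantile normalization. The 3 became 1 without CsA7 replicate 3 or SHAM replicate 3, 6 and 7 without BDL7 replicate 4 and SHAM replicate 4, and 1 in each direction without olive oil replicates 1 and 2. The ligation count was 8 without BDL7 replicate 1, 3 without BDL7 replicates 2 or 3 or SHAM replicates 1 or 4, and 2 without BDL7 replicate 4. Under total-count scaling and quantile normalization the ligation median of this list turned to 0.07 and 0.11, while the cyclosporin median stayed at -0.52 and -0.56.

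Promoters of a cytosolic and an endoplasmic reticulum chaperone are shown with the letters that their known activators bind. Hspa1b holds a heat shock element (GAANNTTC), 104 bases before the start at chr17:34959239-34959488 on the minus strand. Hspa5 holds an ER stress element, 65 bases before the start at chr2:34771840-34772089 on the plus strand. They are from RefSeq on GRCm38.p6, 250 bases each, and these motifs and Hspa5 were chosen after values were seen.
Hspa1b: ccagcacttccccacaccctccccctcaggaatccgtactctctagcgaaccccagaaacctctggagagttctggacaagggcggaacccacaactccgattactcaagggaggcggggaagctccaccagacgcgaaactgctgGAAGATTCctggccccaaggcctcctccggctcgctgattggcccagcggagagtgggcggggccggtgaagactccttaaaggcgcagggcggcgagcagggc
Hspa5: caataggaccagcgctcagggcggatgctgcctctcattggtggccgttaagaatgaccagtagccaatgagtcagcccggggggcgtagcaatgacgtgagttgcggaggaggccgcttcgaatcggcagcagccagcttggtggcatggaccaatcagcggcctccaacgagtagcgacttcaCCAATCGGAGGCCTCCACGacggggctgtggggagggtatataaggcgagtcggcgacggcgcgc
The heat shock element was found in 5 of 7 promoters of the heat shock list against 6.24% of all promoters of genes tested, and in 8 of 118 (6.78%) of the genes lower in both. The ER stress element was found in 8 of 14 promoters of the endoplasmic reticulum list against 0.172% of all promoters.

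Hspa1b, an inducible Hsp70, had 245, 239.5, 196 and 141 counts in sham and 105, 53.9, 66.8 and 48.1 after ligation. It had 416, 557, 412 and 444 on olive oil and 149.8, 214, 169 and 164 on cyclosporin. The groups did not overlap in either model, and the effects were -1.60 (SE 0.22, adjusted p = 3.06e-05) and -1.39 (SE 0.22, adjusted p = 0.00257). The difference had an interval from -0.88 to 0.45, while olive oil itself exceeded sham by 1.17 (adjusted p = 0.00156). Hspa1b and Hspa1a are near-identical copies between which reads may be split, so the value of either alone is uncertain. Hsp90aa1, the inducible Hsp90, fell from 3958, 4488, 3203 and 4749 to 2961, 2660, 2071 and 1950 after ligation, and from 2872, 3385, 3961 and 3056 to 1724, 1874, 1859 and 1525 on cyclosporin. Its effects were -0.77 (SE 0.14) and -0.92 (SE 0.14), with an interval of the difference from -0.28 to 0.58. Hspa8, the constitutive Hsc70, was lower by -0.76 and -0.60, and Dnajb1, a co-chaperone of Hsp70, by -0.65 and -0.74. Hsph1, a nucleotide exchange factor of Hsp70, was lower by -1.46 and -1.18, and its cyclosporin call was lost without CsA7 replicate 1 (-1.11) or CsA7 replicate 4 (-1.15).

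Hspd1 and Hspe1, which form the mitochondrial chaperonin, were lower after ligation alone. Hspd1 had 1163, 1293, 1159 and 1216 counts after ligation against 1809.5 to 2057 in sham, and 1632 to 1814 on cyclosporin against 1540 to 1758 on olive oil. The difference was -0.77 for Hspd1 (95% interval -0.97 to -0.57, adjusted p = 1.01e-05) and -0.70 for Hspe1 (95% interval -0.91 to -0.49, adjusted p = 4.18e-05).

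Hspa5 (BiP), the major Hsp70 of the endoplasmic reticulum, had 2905, 3561, 2681 and 3173 counts on cyclosporin against 4849, 6383, 6372 and 6132 on olive oil, a change of -0.94 (SE 0.18, adjusted p = 0.00871). After ligation it had 7148, 4760.5, 4784 and 3773 against 6437, 5708, 4539 and 7472 in sham, and these groups overlapped (-0.26, SE 0.18, adjusted p = 0.292). The difference of 0.69 had an interval from 0.14 to 1.24 and did not pass over all genes (adjusted p = 0.0624). Pdia4, a disulfide isomerase, gave a difference that passed (0.85, SE 0.24, adjusted p = 0.0156), from 0.09 after ligation and -0.76 on cyclosporin, and the latter was -0.69 and not called without CsA7 replicate 3. Creld2, which is secreted on reticulum stress, was -1.74 on cyclosporin (adjusted p = 0.0169) and -0.33 after ligation (adjusted p = 0.52). Ligated replicate 1 held the most Pdia4, Creld2, Hspa5 and Hyou1 of its group. Edem1, which targets misfolded proteins for breakdown, gave a difference of 0.39 that ended without BDL7 replicate 1 (0.36), CsA7 replicate 3 (0.32), SHAM replicate 3 (0.33) or VEHICLE replicate 1 (0.33). The difference of 1.07 for Sdf2l1, a cofactor in the reticulum, did not pass without any one of BDL7 replicate 4 (1.1), the 4 CsA7 replicates (0.95 to 1.13), SHAM replicates 1, 2 and 3 (0.90 to 1.1) and VEHICLE replicates 2, 3 and 4 (0.91 to 1.09).

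**Figure D3:**
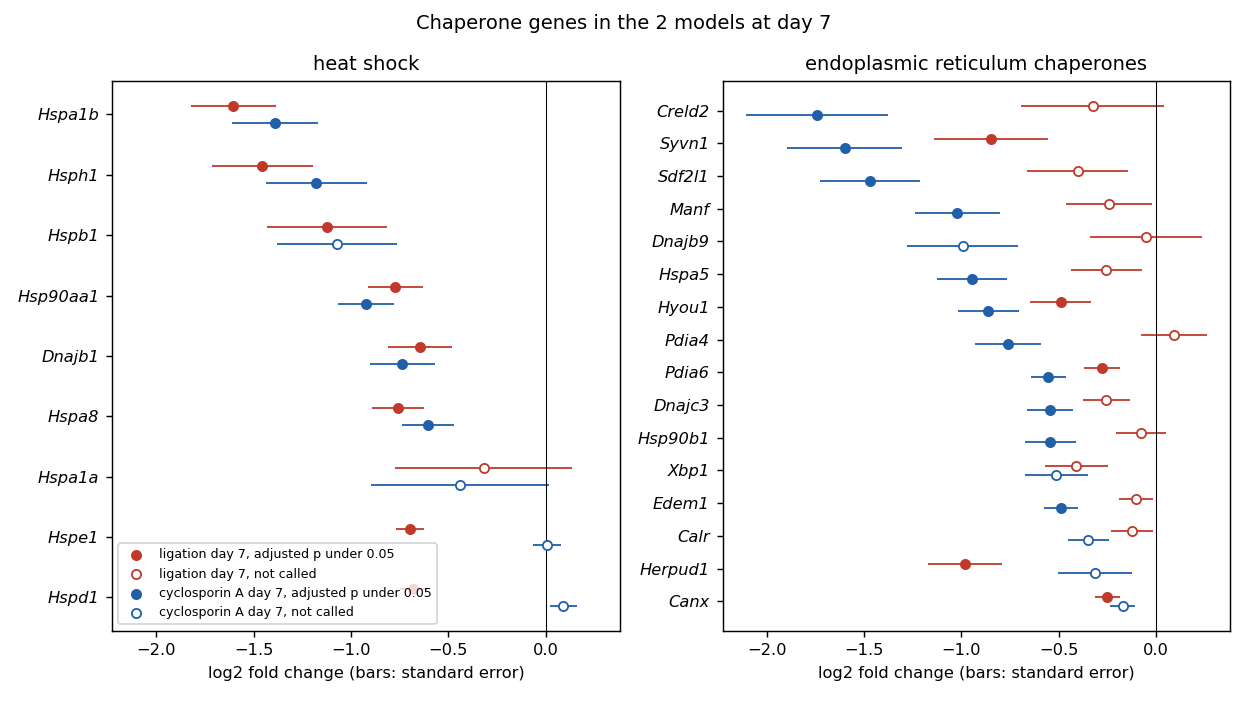
Log2 fold changes at day 7 with standard errors for 9 heat shock genes (left) and 16 endoplasmic reticulum chaperone genes (right), ligation in red and cyclosporin in blue, filled where the adjusted p was under 0.05. In the left panel both colours lie near each other except for Hspd1 and Hspe1, and in the right panel most blue points lie left of the red ones.

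Outside these lists, genes with the largest shared rises were of varied function. Wipf3, a regulator of actin assembly, had 62.7, 85.4, 117 and 98.5 counts after ligation against 24.8, 34.8, 24.2 and 53.4 in sham, and 79.0, 83.7, 82.8 and 86.1 on cyclosporin against 29.9, 36.1, 29.6 and 33.5 on olive oil. All treated libraries exceeded their controls, with effects of 1.42 and 1.34 (SE 0.21 each) and an interval of the difference from -0.54 to 0.70. Ank3, a membrane skeleton adaptor, rose by 1.33 and 1.28 (SE 0.17 each), from 58.6 to 108 counts in the controls to 177 to 268 after ligation and 168 to 217 on cyclosporin. Rdh9, a retinol dehydrogenase, rose by 1.45 and 1.08 (SE 0.21 each). Wee1, a kinase that holds cells before mitosis and a known clock target, rose by 1.78 and 2.05 (SE 0.42 each), and on cyclosporin its change of 2.03 was not called without olive oil replicates 1 and 2. Samd9l, an interferon-inducible gene, rose by 1.46 and 0.94, and the cyclosporin call ended without CsA7 replicate 3 (0.83). The intervals of the difference for these 4 genes ran from -0.44 to 0.55, -0.25 to 0.98, -1.56 to 1.02 and -0.13 to 1.16.

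Among shared falls, Fam222a went from 50.9, 38.5, 67.3 and 59.3 counts in sham to 20.9, 20.3, 16.9 and 20.6 after ligation, and from 53.8, 58.3, 37.2 and 77.8 on olive oil to 9.11, 9.40, 16.1 and 10.7 on cyclosporin. Its effects were -1.39 (SE 0.23, adjusted p = 6.62e-05) and -2.22 (SE 0.23, adjusted p = 9.36e-06), and the difference of 0.83 did not pass (adjusted p = 0.067). Mup17, a major urinary protein gene with near-identical copies, fell from 9473 to 13226 counts in sham to 143 to 286 after ligation (-5.68, SE 0.41). On cyclosporin it was 1170.3 to 5384 against 6954 to 11609.5 (-1.57, SE 0.41, adjusted p = 0.0437), a call that was kept only without BDL7 replicate 4, CsA7 replicate 1 or CsA7 replicate 2 and was lost without any other library, with values from -1.70 to -1.12. Its difference of -4.11 was called (95% interval -5.36 to -2.86, adjusted p = 0.000251).

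Bile acid genes responded to ligation more than to cyclosporin. Of 15 synthesis genes, 12 were lower and 1 higher after ligation (median -0.75), and 3 were lower on cyclosporin (median -0.18), while the difference was called in the direction of ligation being lower for 9. Over all genes tested, 21% were lower after ligation, 2.94% lower on cyclosporin, and 14.2% had a difference called in that direction. Cyp7b1, the oxysterol hydroxylase of the alternative pathway, was lower in both. It fell from 1256, 917, 890 and 1248 to 108, 106, 126 and 85.5 after ligation (-3.33, SE 0.29) and from 1011, 925, 846 and 825 to 452, 635, 199 and 280.3 on cyclosporin (-1.34, SE 0.29, adjusted p = 0.0185), and the cyclosporin call ended without CsA7 replicate 4 (-1.22). The difference was -1.99 (95% interval -2.86 to -1.12, adjusted p = 0.0029). The other genes lower in both were Baat, which conjugates bile acids, and Cyp2c70, which makes mouse muricholic acids, with -0.51 and -0.27 after ligation and -0.36 and -0.45 on cyclosporin. For Baat the cyclosporin call ended without CsA7 replicates 2, 3 or 4 (-0.36, -0.29 and -0.38) or VEHICLE replicates 1, 2 or 4 (-0.34, -0.38 and -0.35). For Cyp2c70 the ligation call ended without BDL7 replicates 1 or 4 (-0.22 and -0.26) or SHAM replicates 1, 3 or 4 (-0.19, -0.28 and -0.24). Without CsA7 replicate 4, and likewise without both olive oil replicates 1 and 2, 1 synthesis gene was lower on cyclosporin.

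Cyp8b1, which sets the share of cholic acid, had 30.1, 26.4, 45.9 and 55.7 counts after ligation against 563 to 709.9 in sham (-4.06, SE 0.29), and 288 to 749 on cyclosporin against 654 to 1029.8 on olive oil (-0.62, SE 0.29, adjusted p = 0.256). Its difference was -3.44 (95% interval -4.34 to -2.53, adjusted p = 7.49e-05). Cyp7a1, whose hydroxylation of cholesterol limits the classic pathway, was the gene that rose after ligation, with 238, 814, 451 and 718 counts against 70.2, 137, 159.9 and 200.4 (1.91, SE 0.55, adjusted p = 0.0146). On cyclosporin it was -0.05, and the difference of 1.96 did not pass (adjusted p = 0.0846). Scp2, Akr1c6 and Amacr, which act in the reduction and shortening of the sterol, differed by -0.90, -0.85 and -0.90 between the models, all called.

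Of 7 sinusoidal uptake transporters, 6 were lower and 1 higher after ligation, 1 was lower and 1 higher on cyclosporin, and the difference was called for 6. Over all genes tested, 21% were lower after ligation, 2.94% lower and 2.41% higher on cyclosporin, and 26% had a called difference. Without olive oil replicates 1 and 2, 0 of the 7 were called on cyclosporin, and the difference was still called for 6. Slco1a1, an organic anion transporter, had 13.4, 21.4, 1.99 and 4.58 counts after ligation and 1443 to 1591 in sham, with 1507 to 2192 on cyclosporin and 1410.5 to 1918 on olive oil. The difference of -7.62 had an interval from -9.08 to -6.17. Slc10a1 (Ntcp), the sodium-dependent bile acid carrier, was -1.58 after ligation and 0.18 on cyclosporin, a difference of -1.76 (SE 0.22, adjusted p = 3.45e-05), and sham was below olive oil by -0.75 (adjusted p = 0.00267). Slc22a7, an organic anion carrier, was lower in both, with 5.85, 3.05, 2.99 and 6.11 counts after ligation against 47.3 to 64.7, and 23.3, 18.8, 11.5 and 10.7 on cyclosporin against 24.1 to 41.9. Its cyclosporin change of -1.16 was -1.03 without CsA7 replicate 3 and -1.0 without CsA7 replicate 4, neither called. Slco1a4 was the uptake transporter that rose in both. It had 244, 373, 336 and 365 counts after ligation against 95, 153, 185 and 168, and 319.9, 273, 426 and 413 on cyclosporin against 129, 152, 201 and 189, with effects of 1.15 and 1.09 (SE 0.22 each). Without olive oil replicates 1 and 2 its cyclosporin effect was 0.85 and was not called.

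Of 8 canalicular exporters, 3 were higher and 3 lower after ligation, and 4 were higher and none lower on cyclosporin. Over all genes tested, 19.2% were higher and 21% lower after ligation, and 2.41% higher on cyclosporin. The cyclosporin count was 1 without CsA7 replicate 3 or CsA7 replicate 4 and 2 without VEHICLE replicate 3. It was 3 without both olive oil replicates 1 and 2. Abcb1a, a P-glycoprotein, had 44.3, 76.3, 74.8 and 84.0 counts after ligation against 5.93 to 12.4 in sham (2.85, SE 0.34), and 28.3, 11.3, 45.2 and 27.4 on cyclosporin against 12, 10.2, 10.9 and 5.36 (1.36, SE 0.34, adjusted p = 0.0246). Cyclosporin replicate 2 lay within the olive oil range. The cyclosporin call ended without CsA7 replicates 1, 3 or 4 (1.3, 1.08 and 1.32) or VEHICLE replicate 4 (1.13). The difference of 1.5 (adjusted p = 0.0271) ended without BDL7 replicates 2 or 4 (1.44 and 1.40), CsA7 replicate 2 (1.13), SHAM replicates 3 or 4 (1.43 and 1.34) or VEHICLE replicate 1 (1.38). Abcc2 (Mrp2), which exports conjugates, rose by 0.39 and 0.37, and the cyclosporin call ended without CsA7 replicates 3 or 4 (0.32 each) or VEHICLE replicates 2 or 3 (0.36 and 0.31). Abcb11, the bile salt export pump, was -0.47 after ligation (adjusted p = 0.00191) and -0.02 on cyclosporin (adjusted p = 0.941). Its difference of -0.45 (adjusted p = 0.0411) was not called without BDL7 replicates 1 or 2 (-0.33 and -0.41), CsA7 replicates 1, 2 or 4 (-0.39, -0.43 and -0.46), SHAM replicates 1, 3 or 4 (-0.40, -0.44 and -0.44) or VEHICLE replicates 2, 3 or 4 (-0.43, -0.42 and -0.45). Of the basolateral exporters, Slc51b was 1.89 after ligation and 0.03 on cyclosporin (difference 1.86, SE 0.45, adjusted p = 0.00446), and Abcc4 was 1.58 and 0.65 (difference 0.92, adjusted p = 0.109).

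Opposite movers were led by genes of varied role. Of the 23 that rose after ligation and fell on cyclosporin, sham lay below olive oil for 6 and above it for 1. Over all genes tested these shares were 10.9% and 11.8%. The control libraries took part in choosing the 23, and a low sham or high olive oil level favours entry to that class. The controls differed for 24.7% of the genes higher in both models and 30.2% of those lower in both, against 22.7% of all genes. Among the 23 that rose after ligation and fell on cyclosporin, Mmp14, a membrane protease that cleaves collagen, is an example. It had 272, 235, 261 and 262 counts after ligation against 99.1, 95.6, 82.1 and 78.3 in sham (1.53, SE 0.12), and 89.1, 97.8, 95 and 96.0 on cyclosporin against 185, 172, 126 and 156 on olive oil (-0.74, SE 0.12). The cyclosporin level lay in the range of sham, and olive oil exceeded sham by 0.83 (adjusted p = 5.86e-05). The difference of the effects was 2.27 (95% interval 1.93 to 2.61, adjusted p = 1.53e-08). Kifc3, a microtubule motor, had 279.9, 217, 210.4 and 246 after ligation against 79.8 to 121, and 62.8, 58.3, 57.5 and 45.7 on cyclosporin against 76.6, 90.7, 152 and 117. The controls of Kifc3 differed by -0.02 only, and its effects were 1.18 and -0.91 (SE 0.18 each), a difference of 2.09 (95% interval 1.56 to 2.62). Sbno2, a transcriptional regulator induced by interleukin 10, had 152, 118, 129.6 and 152 after ligation against 75.7 to 92.5, and 54.7, 58.3, 48.3 and 42.7 on cyclosporin against 134, 75.9, 77.7 and 92.5 (effects 0.66 and -0.86, SE 0.16 each).

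Elf3, an epithelial transcription factor named after its values were seen, had the largest rise after ligation of the 23. It had 104, 70.2, 73.8 and 61.8 counts after ligation against 2.75 to 7.45 in sham, and 0, 0.94, 0 and 0.762 on cyclosporin against 2.19 to 5.98 on olive oil. Its cyclosporin change of -1.70 rests on few counts, and was -1.49 and not called without VEHICLE replicate 1. For further genes of this class, the call in 1 of the models was lost when libraries were left out, while the direction of the effect was kept. Apobec1, the apolipoprotein B editing enzyme, was 1.01 and -1.01, the latter lost without CsA7 replicate 1 (-0.86) or VEHICLE replicate 2 (-0.94). Pdgfc, a growth factor, was 0.95 and -0.72, the latter lost without CsA7 replicates 2, 3 or 4 (-0.68, -0.69 and -0.68) or VEHICLE replicate 4 (-0.57). Sept11, a septin, was 0.69 and -0.60, the latter lost without CsA7 replicates 3 or 4 (-0.60 and -0.56) or VEHICLE replicates 2 or 3 (-0.54 and -0.60). Fndc3b was 0.66 and -0.62, the latter lost (-0.38) without olive oil replicates 1 and 2. For Id3, an inhibitor of helix-loop-helix factors, the ligation rise of 0.73 was lost without BDL7 replicates 1 or 3 (0.66 and 0.64) or SHAM replicates 1 or 2 (0.70 and 0.63), beside a cyclosporin change of -1.52.

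Among the 56 genes that fell after ligation and rose on cyclosporin, sham exceeded olive oil for 22 (39.3%, against 11.8% of all genes tested) and lay below it for none. The same control libraries took part in choosing the 56. A high sham or low olive oil level favours entry to this class, so the tilt is not a separate observation. Ulk1, a kinase that starts autophagy, is an example, with 141, 162, 137 and 147 counts after ligation against 248, 263, 297 and 196 in sham, and 238, 275, 267 and 276 on cyclosporin against 199.8, 155, 90.8 and 113 on olive oil. Its cyclosporin level lay within the sham range and sham exceeded olive oil by 0.89 (adjusted p = 0.00211), with effects of -0.76 and 0.98 (SE 0.18 each). Fbxl20 and Fbxo21, F-box proteins of ubiquitin ligases, had effects of -0.74 and 0.78, and -0.71 and 0.78, with sham above olive oil by 0.77 and 0.89. The cyclosporin call of Fbxl20 ended without CsA7 replicate 4 (0.76), and that of Fbxo21 (0.70) without olive oil replicates 1 and 2.

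Abcg8 and Ppara moved in opposite directions with like controls. Abcg8, a partner of Abcg5 in the export of sterols into bile, had 56.0, 62.0, 70.8 and 87.8 counts after ligation against 114, 102, 119.9 and 115 in sham, and 177, 198, 207 and 251 on cyclosporin against 110.1, 105, 71.1 and 107. Treated and control libraries did not overlap in either model, and the effects were -0.71 (SE 0.15, adjusted p = 0.00074) and 1.09 (SE 0.15, adjusted p = 0.000246), with sham and olive oil apart by 0.21 (adjusted p = 0.333). Abcg5 itself was 0.32 after ligation (adjusted p = 0.326) and 1.02 on cyclosporin, the latter lost without CsA7 replicates 3 or 4 (0.98 and 0.87) or VEHICLE replicate 3 (0.87). Ppara, the nuclear receptor for fatty acid oxidation, was named after its values were seen. It had 155, 218, 142 and 166 counts after ligation against 315 to 463 in sham (-1.21, SE 0.12), and 620.5, 561, 611 and 601 on cyclosporin against 375 to 437 on olive oil (0.57, SE 0.12, adjusted p = 0.00684). The difference was -1.78 (95% interval -2.12 to -1.44, adjusted p = 3.23e-07). Of 22 genes of fatty acid oxidation and Ppara targets, 16 were lower after ligation and 1, Ppara, was higher on cyclosporin. The shares over all genes tested were 21% and 2.41%.

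**Figure D4:**
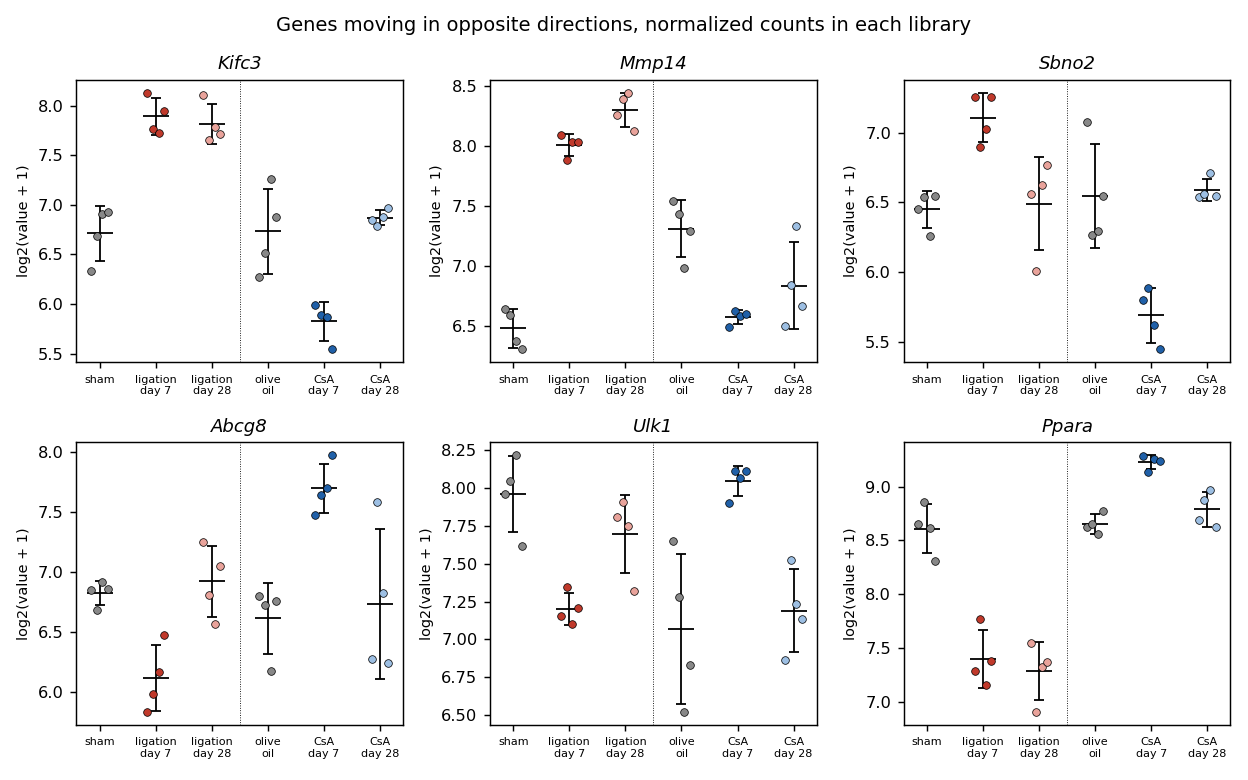
Points are single libraries on a scale of log2(normalized count + 1), with means and SD over 4 libraries, and the dotted line parts the ligation groups from the cyclosporin (CsA) groups. At day 7 the upper 3 genes lay above sham and below olive oil, and the lower 3 below sham and above olive oil.

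Fatty acid synthesis genes also parted. Of 13, 7 were lower and 1 higher after ligation (median -0.54), 4 were higher on cyclosporin (median 0.57), and the difference was called for 10, all lower after ligation. Over all genes tested, 21% were lower after ligation, 2.41% higher on cyclosporin, and 14.2% had a difference called in that direction. The cyclosporin count was 2 without CsA7 replicates 1 or 4 or VEHICLE replicates 1 or 2, and 2 without both of the latter, with a median of 0.39. It was 6 without CsA7 replicate 2 and 5 without SHAM replicate 4 or VEHICLE replicate 3. Total-count scaling and quantile normalization each gave 8. Thrsp, a regulator of lipogenesis, had 343, 409.9, 565 and 369 counts after ligation against 1052 to 1442 in sham (-1.53, SE 0.28), and 2701, 1125, 1711 and 2269 on cyclosporin against 580.2, 654, 1223 and 782 on olive oil (1.25, SE 0.28, adjusted p = 0.0246). Its cyclosporin call ended without CsA7 replicates 1, 3 or 4 (1.07, 1.29 and 1.16) or VEHICLE replicates 1 or 2 (1.11 and 1.17), and the difference of -2.78 had an interval from -3.65 to -1.91. Me1, the malic enzyme that supplies NADPH, was -1.62 after ligation and 0.57 on cyclosporin (adjusted p = 0.125), with a difference of -2.19 (SE 0.28). Elovl5 and Dgat2, in fatty acid elongation and triglyceride assembly, differed by -1.24 and -0.86. Acaca, the acetyl-CoA carboxylase, rose on cyclosporin alone, from 145 to 215 to 280.2 to 373 counts (0.83, SE 0.12, adjusted p = 0.000376). Fasn, the fatty acid synthase, passed in neither model (0.32 and 0.67, adjusted p = 0.205 and 0.0584).

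The remaining named opposite genes were Upp2, Fam47e and N4bp2l1. Upp2, a uridine phosphorylase, was -1.08 after ligation and 1.83 on cyclosporin. Its ligation call ended without BDL7 replicates 1 or 3 (-0.73 and -0.97) or SHAM replicates 1, 2, 3 or 4 (-1.15, -1.06, -0.99 and -1.12), and its cyclosporin call without CsA7 replicates 3 or 4 (1.71 and 1.76). Fam47e was -1.40 and 0.93, the latter lost without CsA7 replicates 1 or 4 (0.87 and 0.86) or VEHICLE replicate 3 (0.82). N4bp2l1 was -1.25 and 0.76, the latter lost without any one of the 4 BDL7 replicates (0.76 each), CsA7 replicates 1, 2 and 4 (0.73, 0.73 and 0.68), SHAM replicates 2, 3 and 4 (0.76 each) and VEHICLE replicate 1 (0.77).

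Many lists had most of their genes called after ligation and few or none called on cyclosporin in limma. All 18 cell cycle genes (median 2.98) and all 13 monocyte and macrophage markers (median 2.64) were higher after ligation, as were 22 of 25 fibroblast and matrix genes (median 2.05) and 9 of 10 bile duct cell markers (median 2.44). On cyclosporin none of the 18, 13 and 10 passed in limma, with medians of 0.86, -0.04 and -0.32, and of the 25 matrix genes 1 was higher and 1, Mmp14, lower (median 0.37). At an unadjusted p under 0.05 limma had 7, 4 and 4 of the 18, 13 and 10 in either direction. Over all 11675 genes tested it had 2386 on cyclosporin, a smaller share than in each of these lists, and the excess was not tested. After adjustment, edgeR on the recovered reads called 2, 0 and 1, against 324 higher and 404 lower among all genes tested. DESeq2 called 4, 1 and 1, against 344 higher and 445 lower. Without VEHICLE replicate 1, and likewise without both olive oil replicates 1 and 2, 3 cell cycle genes were higher on cyclosporin, and 1 was without CsA7 replicate 2. The difference itself was called for 9 cell cycle, 12 macrophage, 19 matrix and 8 bile duct genes. The 9 cell cycle genes became 2 without olive oil replicates 1 and 2, 3 without VEHICLE replicate 1 or CsA7 replicate 4, 4 without BDL7 replicate 2 or CsA7 replicate 2, 5 without BDL7 replicate 3, CsA7 replicate 1 or SHAM replicates 3 or 4, and 14 without CsA7 replicate 3. Col1a1, a fibrillar collagen, differed by 4.0 (SE 0.59, adjusted p = 0.000227), Krt19, a duct keratin, by 3.74 (SE 0.67, adjusted p = 0.000368), and Mki67, a proliferation marker, by 3.00 (SE 0.61, adjusted p = 0.00111). Of 20 genes that are higher in male mouse liver, 19 were lower after ligation (median -3.23) and 1 on cyclosporin (median -0.60). The cyclosporin count was 4, 2 and 2 without CsA7 replicate 2, CsA7 replicate 3 and VEHICLE replicate 3, and 0 without CsA7 replicate 4.

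The differences that lay farthest toward lower after ligation were in such genes. Hsd3b5, a steroid dehydrogenase, had 0, 1.02, 0 and 0 counts after ligation, 325 to 487 in sham, 258 to 509 on cyclosporin and 328 to 598 on olive oil. Its difference was -8.37 (SE 0.38), a value that depends on the pseudocount since 3 of 4 ligated libraries were at 0. Sult2a8, a bile acid sulfotransferase, had 15.0, 27.5, 19.9 and 9.16 counts against 1269.7 to 1612, and a difference of -6.14 (95% interval -7.00 to -5.29). Elovl3, a fatty acid elongase, had 10.9, 12.2, 4.99 and 3.82 counts after ligation against 1518 to 1889, and 874, 1207, 132 and 366 on cyclosporin against 1648 to 2107. The cyclosporin libraries were all below olive oil without passing (-1.95, SE 0.56, adjusted p = 0.0681), and the difference was -5.73 (95% interval -7.47 to -4.0). Slco1a1 and the pseudogene Mup-ps17, which shares sequence with the Mup genes (difference -7.18, SE 0.47), complete this group.

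The differences that lay farthest toward higher after ligation were Lcn2, Cxcl5, Mt2, Saa2 and Sult1e1, of which Lcn2, Mt2 and Saa2 were high in olive oil replicates 1 and 2. Lcn2, an iron-binding acute-phase protein, had 1853, 1404, 1591 and 1875 counts after ligation against 3.56 to 15.8 in sham, 1.52 to 6.90 on cyclosporin, and 851, 315, 4.38 and 0 on olive oil. Its ligation effect was 7.84 (SE 1.68) and the difference 10.60 (SE 2.37, adjusted p = 0.00578). Without olive oil replicates 1 and 2 the difference was 6.70 and was called, and the cyclosporin effect turned from -2.76 to 1.14, called in neither case. Mt2, a metallothionein, had 7947, 539, 16.4 and 10.7 on olive oil, and Saa2 10084, 6509, 64.6 and 73.8. The difference for Mt2 of 7.35 was lost without BDL7 replicates 1, 3 or 4 (7.32, 7.32 and 7.28), CsA7 replicates 2 or 4 (7.02 and 7.24), SHAM replicates 1, 2 or 4 (7.30, 7.34 and 7.14) or VEHICLE replicate 2 (6.80). That for Saa2 of 6.31 was lost without any one library other than CsA7 replicate 3 or VEHICLE replicates 3 or 4, with values from 5.06 to 6.44. Without both olive oil libraries the differences were 3.76 for Mt2 and 2.88 for Saa2, both called. Saa2 and Saa1 share most of their sequence. The cyclosporin effect of Saa2 turned from -2.45 to 0.98, and that of Cxcl5 from -0.87 to 0.67, without olive oil replicates 1 and 2, called in neither case. That of Mt2 then turned from -1.47 to 2.12 and was called (adjusted p = 0.0438), while on all 16 libraries edgeR and DESeq2 gave -4.94 and -4.95 and called it lower. Cxcl5, a neutrophil attractant, had 190.5, 64.1, 216 and 179 counts after ligation and at most 2.10 in sham and 17.9 on olive oil (difference 7.39, SE 1.08). Sult1e1, an estrogen sulfotransferase, had 49.3, 113, 244 and 114 after ligation and at most 4.63 in the other 12 libraries of the 4 groups (difference 6.24, SE 0.88).

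Acute-phase genes as a list, 12 of 21 higher and 1 lower after ligation (median 0.96), had a median of -0.68 on cyclosporin with 1 lower. That median was -0.02 without olive oil replicates 1 and 2, and 0 of the 21 were then called on cyclosporin. After ligation 15 were then higher and 3 lower, with the median still at 0.96. The groups share 1 estimate of the spread per gene, so the scatter on olive oil also widens the errors of the ligation effects, as for Saa1 below. Without VEHICLE replicates 3 and 4 the count lower on cyclosporin was 6 and 5, and it was 0 without any one CsA7 replicate, SHAM replicates 2 or 3 or VEHICLE replicates 1 or 2. Saa1 passed in neither model (2.23 and -2.18, adjusted p = 0.102 and 0.25), and its difference of 4.41 (adjusted p = 0.0395) was lost without any library other than CsA7 replicate 3 or VEHICLE replicates 3 or 4 (3.52 to 4.47). Without both olive oil replicates 1 and 2 that difference was 1.98 and was called, and the cyclosporin effect was 0.24. Among genes of drug metabolism, the difference was called for 12 of 20 Cyp1, Cyp2 and Cyp4 enzymes, all lower after ligation (median -1.03), and for 2 higher and 12 lower of 22 sulfotransferases and glucuronosyltransferases (median -0.55). It was called for 11 higher and 1 lower of 16 NRF2 targets (median 0.96), and for 4 in each direction of 15 CAR and PXR targets (median 0.1). Over all genes tested it was called higher for 11.9% and lower for 14.2%. The 4 lower CAR and PXR targets were 2 without any one library other than BDL7 replicate 3 or CsA7 replicate 3, and the 4 higher were 2 without BDL7 replicate 3, CsA7 replicate 1, SHAM replicate 3 or VEHICLE replicate 2. Nqo1, an NRF2 target, was 2.25 after ligation and 0.81 on cyclosporin (difference 1.44, adjusted p = 0.00826). For Cyp2b10 and Cyp2c55, drug-inducible cytochromes, the intervals of the difference ran from -0.96 to 1.13 and from -0.55 to 0.76. Cyp3a11 had a difference of 0.42 (adjusted p = 0.048), which was lost without BDL7 replicates 2 or 3 (0.34 and 0.36), CsA7 replicates 1, 3 or 4 (0.41, 0.43 and 0.37), SHAM replicates 2 or 3 (0.39 and 0.34) or VEHICLE replicates 2, 3 or 4 (0.43, 0.43 and 0.35). For Ppia, the cyclophilin that binds cyclosporin, and Rcan1, a calcineurin target, effects on cyclosporin were 0.03 and -0.49 (adjusted p = 0.879 and 0.473). Fkbp5 differed by 1.72 (adjusted p = 0.0343), lost without BDL7 replicates 2 or 3 (1.71 and 1.57), CsA7 replicates 1 or 2 (1.71 and 1.51), SHAM replicates 1 or 2 (1.62 and 1.70) or VEHICLE replicate 2 (1.71), and 1.06 without both olive oil replicates 1 and 2. The receptor gene Nr0b2 (-0.61, adjusted p = 0.371) did not differ between the effects beyond its error.

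A further model with controls of its own, a diet with the porphyrin-inducing compound DDC at day 7 against control diet, gave values for the same genes that had no part in choosing them. In that comparison 24.4% of the genes tested were higher and 23.4% lower. Of the 77 genes higher in both models, 62 (80.5%) were also higher on DDC and 1 was lower, and of the 159 lower in both, 131 (82.4%) were lower and 1 higher. Genes called after ligation alone were higher on DDC for 1460 of 2144 (68.1%) and lower for 1416 of 2241 (63.2%). Genes called on cyclosporin alone were higher for 58 of 148 (39.2%) and lower for 65 of 161 (40.4%). Of the opposite movers, 11 were higher and 2 lower of the 23 that rose after ligation, and 24 lower and 8 higher of the 56 that fell after it. Mmp14 was 1.44 on DDC (adjusted p = 1.85e-11) and Ppara -1.68 (adjusted p = 2.82e-12), as after ligation, while Abcg8 was 0.51 (adjusted p = 0.0343) and Ulk1 0.59 (adjusted p = 0.00529), as on cyclosporin. Hspa1b was -3.56 (adjusted p = 2.03e-06), Cry1 -1.55 (adjusted p = 0.004) and Wipf3 1.52 (adjusted p = 5.82e-08), while Dbp was 0.96 (adjusted p = 0.224) and Npas2 -0.91 (adjusted p = 0.111).

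**Figure D5:**
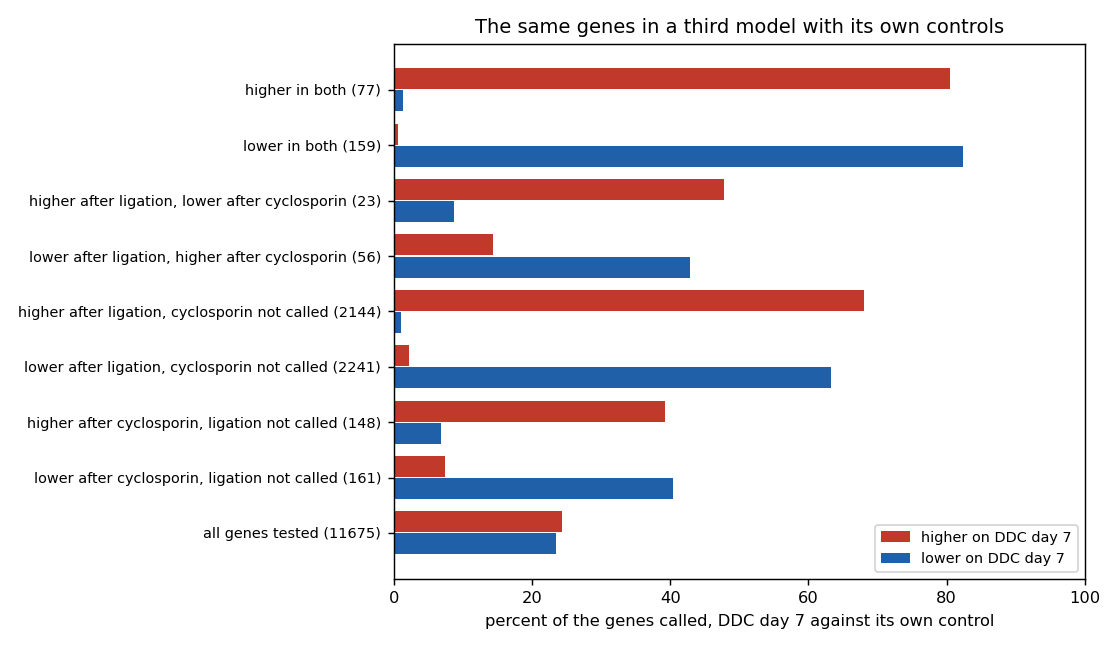
Bars give the percentage of the genes in each class (number in brackets) that were higher (red) or lower (blue) at day 7 of the DDC diet against its own control diet, with all 11675 genes at the bottom. The longest bars belong to the genes that moved the same way in both models.

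The day 28 groups were compared with the same sham and olive oil libraries that helped to choose these genes, so their values there are given as a description. None of the 315 passed on cyclosporin at day 28 in limma, and edgeR and DESeq2 were not run at that day. Of the 315, 84 had an unadjusted limma p under 0.05. That count was not taken over all genes tested, so whether 84 is more than their share is not known. Of all genes tested, 1 was higher (0.00857%) and 2 lower (0.0171%) on cyclosporin at day 28, and 23.1% were higher and 24.3% lower after ligation. The medians at day 28 were 0.73 after ligation and 0.23 on cyclosporin for the genes higher in both, and -0.86 and -0.18 for those lower in both. Genes that had risen after ligation and fallen on cyclosporin had medians of 0.32 and -0.22, and those of the reverse pattern -0.61 and 0.16.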

How the data were processed

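The data were 3' mRNA libraries (QuantSeq with unique molecular identifiers) from mouse liver. The deposited table holds a normalized count for each of 29546 Ensembl genes in 36 libraries, a signal that the authors made by dividing gene counts by 1 factor per library. The submitters' processing notes name STAR 2.7.9a, RSEM 1.3.1, UMI-tools 1.1.1, DESeq2 and Trim Galore, with the GRCm39 build, but no order or settings. All values came out as whole reads once divided by each library's step (tolerance 0.001), so the deposited count signal kept its depth of 2278745 to 3770267 reads per library. Intervals and tests over 4 libraries limit the precision, and nothing in the labels says more of how replicates were obtained, so p-values measure the spread between these samples.

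Values were tested as log2(value + 1) with limma 3.58.1 in R 4.3.3 (trend and robust options, 1 coefficient per group, 16 libraries) on genes with at least 10 in at least 4 libraries, with Benjamini-Hochberg adjustment over 11675 genes at 0.05. Adjusted p-values are from limma unless another tool is named, and fold changes on this scale understate the change of low genes. In the main fit the 4 groups shared 1 estimate of the spread per gene, so scatter in 1 group bears on the errors of both effects. The later and DDC comparisons came from a fit of all 36 libraries. Symbols came from GENCODE M21 and matched 29121 of 29546 identifiers. Members and lists were chosen with earlier results of these data known. Named genes were 28 preset genes, the 6 shared movers in each direction with the largest smaller effect (no overlap, level of at least 50), the 8 opposite movers in each direction (level of at least 20), the 5 highest and 5 lowest differences, and up to 4 members per described list, leaving out predicted genes. Per3, Ciart, Hspa5, Hyou1, Creld2, Hsp90aa1, Dnajb1, Elf3, Ppara, Abcg5, Abcc2, Acaca, Baat, Cyp2c70 and Clock were named after their values were seen. Some genes that these rules name are not reported here. Alternatives were other pseudocounts, filters and scalings, edgeR 4.0.16 and DESeq2 1.42.0 on recovered reads, a replicate block, each library left out, and olive oil replicates 1 and 2 left out, the last chosen after seeing the data. On simulated data of 11183 genes, 55% of 2-fold and 80% of 4-fold differences of effects were recovered, with 5 of 136 calls in unchanged genes. The simulation changed genes in the ligated group only, with equal means in the other groups and a common dispersion per gene. Differing controls, a cyclosporin effect and the split of the olive oil libraries were not simulated, so these rates may not hold for the real comparison.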

Additional observations from a re-analysis of the deposited data

Results flagged for a closer look

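In 244 groups of 4 libraries over 61 named genes, 14 had a library whose gap to its nearest neighbour took a larger part of the group's range than Dixon's 95% critical value, and chance gives about 5% of such groups. Values are normalized counts, each with its nearest neighbour, and no cause was tested. In sham, replicate 3 was highest for Slco1a1 (1591 against 1457) and Abcc4 (17.9 against 14.2), and replicate 2 was highest for Fasn (1113 against 897) and lowest for Sult2a8 (1269.7 against 1566). On olive oil, replicate 4 was highest for Slc10a1 (1628 against 1447) and replicate 3 lowest for Abcg8 (71.1 against 105). After ligation, replicate 2 was highest for Hsd3b5 (1.02, the others at 0) and lowest for Cxcl5 (64.1 against 179), replicate 3 was lowest for Fam222a (16.9 against 20.3), and replicate 1 was highest for Mup-ps17 (0.835, the others at 0). On cyclosporin, replicate 1 was highest for Pdgfc (20.2 against 15.3), replicate 2 lowest for Upp2 (848 against 1659) and highest for Sult1e1 (0.94, the others at 0), and replicate 4 highest for Fbxl20 (116 against 109).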

How the results depend on the processing

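Leaving out each library in turn gave 1959 to 2343 genes higher and 2166 to 2524 lower after ligation, 135 to 285 and 179 to 345 on cyclosporin, 1121 to 1457 and 1406 to 1697 for the difference, and 1049 to 1392 and 1014 to 1285 between the controls. The classes held 34 to 84 genes higher in both, 90 to 164 lower in both, 11 to 34 higher after ligation and lower on cyclosporin, and 13 to 60 of the reverse. Scaling to total counts moved the median log2 fold change to 0.307 after ligation and to 0.13 on cyclosporin. It gave 4645 genes higher and 1017 lower after ligation, 849 and 170 on cyclosporin, and 2118 and 974 for the difference, with 438 higher in both and 47 lower in both. The share of calls that were higher went from 47.7% to 82% after ligation, from 45% to 83.3% on cyclosporin and from 45.5% to 68.5% for the difference, and 157 of the 315 genes were called in both. Genes lower in both numbered 90 after quantile normalization and 104 in a fit of all 36 libraries, and genes lower after ligation and higher on cyclosporin 37 in that fit and 30 without the filter. Genes higher after ligation and lower on cyclosporin numbered 12 without the filter, 48 with edgeR and 48 with DESeq2. Without olive oil replicates 1 and 2, 795 genes were lower in sham, and the opposite classes held 13 and 35 genes. The causes of these shifts were not tested.

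With a replicate block 264 genes were called in both models, 245 of them among the 315, and no count moved by over 1.5 times. None of 16 correlations of libraries with the same replicate number was over 0.1 (-0.116 to 0.0723). That number is the one in the sample descriptions, which the block also used. The sample titles carry other numbers for many libraries, and pairing by those was not tested. Of 9062 values of named genes under the alternatives, 8410 kept direction and call, 414 lost the call, 130 gained it, and 108 changed direction. Of the 108, 98 were called neither before nor after, such as the cyclosporin effects of Lcn2 (1.14) and Saa1 (0.24) without olive oil replicates 1 and 2. The other 10 were the cyclosporin effect of Mt2 (2.12 without olive oil replicates 1 and 2) and ligation effects under total-count scaling for Ppia (0.24), Edem1 (0.22), Pdia6 (0.048) and Cyp2c70 (0.051), and under quantile normalization for Ppia (0.52), Hspa5 (0.51), Hsp90b1 (0.55), Pdia6 (0.14) and Cyp2c70 (0.30). Depth limits genes with few counts, such as Elf3 on cyclosporin and Hsd3b5 after ligation, whose fold changes depend on the pseudocount.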
